A study of Mus musculus with 11 samples.

Results

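The cathepsin genes Ctsa, Ctsb, Ctsc, Ctsd, Ctsh, Ctsk, Ctsl, Ctss and Ctsz were followed in bone marrow endothelial cells taken from tumour-burdened and healthy mice. These 9 genes were chosen by name, with earlier results of these libraries in view, and they are 9 of the 27179 rows of the count table. All 9 were among the 11948 genes that passed the filter on low counts. Ctss and Ctsk passed it through the few libraries in which they had reads, so passing says nothing about the others. In short, Ctsb was higher in all 9 libraries from burdened mice than in both control libraries. Ctss was seen with more than 1 read only in the controls, Ctsl was high in 1 library each of the met and non-met groups, and for every one of the 9 genes the met and non-met values overlapped.

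Cathepsins are proteases that work mainly in the acid lumen of endosomes and lysosomes. They are made as inactive proenzymes, carry a mannose 6-phosphate tag that directs them to the lysosome, and are switched on there by removal of the propeptide. Most of the genes described here (Ctsb, Ctsc, Ctsh, Ctsk, Ctsl, Ctss, Ctsz) encode papain-type cysteine proteases, whereas Ctsd encodes an aspartic protease and Ctsa a serine carboxypeptidase that also shields other lysosomal enzymes. When secreted, several of them can cut matrix proteins, and they are studied for that reason in tumours, angiogenesis and bone resorption.

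The RNA came from CD31hi EMCNhi endothelial cells, sorted by flow cytometry from the marrow of BALB/c mice. This surface profile marks type H capillaries in healthy bone, and the same gate was used in infiltrated marrow, where it need not mark the same vessels. In mice carrying RFP-labelled 4T1.2 mammary cancer cells, the infiltrated area of the bone (met) and the neighbouring area free of tumour (non-met) were dissected apart before sorting. Healthy mice of matched age served as control. The study asked how these cells differ between infiltrated, adjacent and healthy marrow, and the labels give 3 met, 6 non-met and 2 control libraries. Each library came from a pool of 1 to 4 mice. Libraries met 1, non-met 2 and non-met 6 came from burdened pool 2, met 2 and non-met 3 from pool 3, met 3 and non-met 4 from pool 4, and non-met 1 and 5 from pool 1, so libraries of a pool share animals and are not independent. With 2 control libraries every comparison with control rests on 2 values.

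Total counts ran from 2547520 to 8771860 in met, from 733342 (non-met 4) to 7683451 in non-met, and were 5029771 and 19539761 in the controls. Levels are given as CPM, counts per 1000000 after TMM scaling of the libraries, and levels of different genes are compared only as RPKM, which also divides by gene length. Counts at or under 3 reads in a library were treated as not detected, and intervals of depth cover counting error only. The sorted cells carried their label: all 10 defining endothelial genes (among them Pecam1, which encodes CD31, and Emcn) were over 3 reads in each group, with summed levels of 12252 to 14733 CPM in met, 8963 to 15092 in non-met and 7765 to 11001 in control. Genes of other marrow cells were also present, although the study's gate set out to exclude haematopoietic cells by CD45 and Ter119. The summed level of 15 granulocyte genes was 35.6 to 204 CPM in met, 398 to 5262 in non-met and 97.4 to 388 in control, and that of 15 stromal genes, led by Cxcl12, was 548 to 3062 in met, 1319 to 4746 in non-met and 4220 to 10942 in control. The 15 monocyte and macrophage genes summed to 356 to 1114, 601 to 1607 and 1038 to 1603 CPM in the same order, with C1qa, C1qb, C1qc, Ccr2 and Ms4a7 at 0 in all 11 libraries. The 11 mammary epithelial genes summed to 12.4 to 123, 1.44 to 150 and 1.12 to 19.5 CPM. In such bulk libraries fewer cells that express a gene and less RNA per cell cannot be told apart.

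In the GRCm38 assembly the 9 genes lie on 6 chromosomes, given here on the whole-gene span. Ctsb spans chr14:63122462-63145923, Ctsl chr13:64361890-64370772, Ctsd chr7:142375910-142387827, Ctsc chr7:88278024-88315861 and Ctsh chr9:90054267-90076095. Ctsa spans chr2:164832872-164841032 and Ctsz chr2:174427494-174439039. Ctsk (chr3:95499210-95509387) and Ctss (chr3:95526786-95556405) are neighbours separated by 17398 bases. The spans of Ctsb, Ctsa, Ctss and Ctsz overlap Fdft1, Neurl2 with Pltp, the pseudogene Hmgb1-ps5 and Nelfcd, respectively. The strand setting of the counting is not given in the sources used here, and reads in those overlaps could belong to either gene.

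Windows of 250 bases before the annotated start were read from RefSeq (GRCm38.p6), and those lying wholly before the gene's own span were kept. This left 1 window each for 5 of the 9 genes (Ctsa, Ctsd, Ctsk, Ctss and Ctsz) and 19827 windows over all genes. They were searched on both strands for CACGTG, the E-box at the core of the lysosomal element read by TFEB and TFE3, for the GC box GGGCGG, and for the interferon-type letters GAAANNGAA and TTCNNNGAA. CACGTG lay in 1 of the 5 windows (Ctsd) and in 5.57% of all windows. GGGCGG lay in 3 of the 5 (Ctsd, Ctss and Ctsz) against 26.8% of all windows, GAAANNGAA in 1 (Ctss) against 7.42%, and TTCNNNGAA in 0 of 5 against 7.63%. Dropped windows, which lie partly or wholly inside the gene span, also held matches. CACGTG was in that of Ctsl and in a further window of Ctsa, and TTCNNNGAA and the GC box were in that of Ctsc. The windows of the abundant Ctsd and of Ctss, which stood at the other end of the range, are shown 5′ to 3′ with matches in capitals. A match is a description of the letters and not a binding site.
Ctsd, chr7:142387828-142388077, minus strand: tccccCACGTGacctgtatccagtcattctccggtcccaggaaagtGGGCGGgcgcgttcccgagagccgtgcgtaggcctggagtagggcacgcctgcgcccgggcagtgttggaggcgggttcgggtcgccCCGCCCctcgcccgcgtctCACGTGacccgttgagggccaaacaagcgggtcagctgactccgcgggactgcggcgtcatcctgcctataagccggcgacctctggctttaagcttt
Ctss, chr3:95526536-95526785, plus strand: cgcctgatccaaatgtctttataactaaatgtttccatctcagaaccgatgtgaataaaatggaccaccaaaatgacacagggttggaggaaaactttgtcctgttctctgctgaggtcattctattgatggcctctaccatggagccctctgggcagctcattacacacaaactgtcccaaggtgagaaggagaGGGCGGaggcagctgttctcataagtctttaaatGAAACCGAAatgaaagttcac

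Ctsl, Ctsb and Ctsd made up most of the cathepsin RNA in these cells. Together they held 78.3% to 97.3% of the summed RPKM of the 9 genes in each library. Ctsl had the highest mean at 794 RPKM ± 599 (SD, n = 11), followed by Ctsb at 498 ± 212 and Ctsd at 266 ± 106. Their ranks by mean RPKM among the 11948 tested genes were 36, 68 and 160. Ctsl was above Ctsb in 9 of 11 libraries and below it in non-met 2 and non-met 4, so the order of the first 2 genes was not the same throughout, whereas Ctsb was above Ctsd in 11 of 11. Ctsd was above Ctsz in 11 of 11 libraries. Ctsz (87.9 RPKM ± 58.8) and Ctsa (36.7 ± 15.1) came next, with Ctsz the higher in 9 of 11. Ctsc (19.7 ± 19.2), Ctsh (8.58 ± 13.2), Ctsk (5.52 ± 9.77) and Ctss (mean 2.28) followed, and their order changed from library to library. The 9 genes took 0.283% of the counts in control 2 as the lowest and 1.01% in non-met 3 as the highest. All 9 were over 3 reads in control 1, the deepest library, and 5 in non-met 4, the shallowest.

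**Figure D1:**
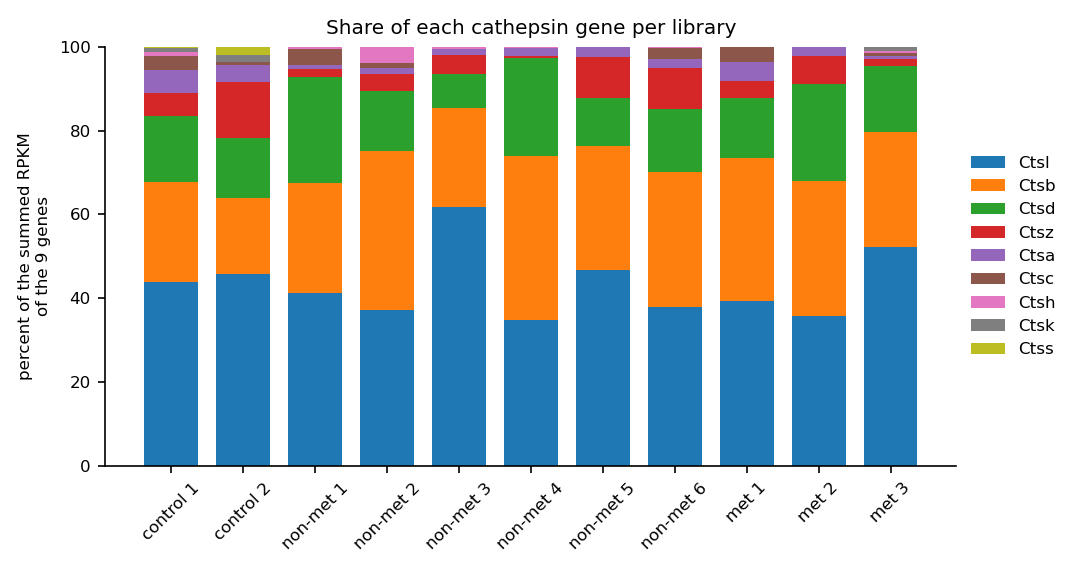
Share of each cathepsin gene in the summed RPKM of the 9 genes, in percent, for each of the 11 libraries. Ctsl, Ctsb and Ctsd together fill 78.3% to 97.3% of every bar, and Ctss is visible in control 2.

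Ctsb encodes a cysteine protease that acts both as an endopeptidase and as a dipeptidyl carboxypeptidase. It stood at 1988, 2444 and 3671 CPM in met 1 to 3, at 1667, 2082, 4361, 3105, 2057 and 2311 CPM in non-met 1 to 6, and at 1266 and 1003 CPM in the controls. Every burdened library was above both controls, and the met values lay inside the non-met range. The same complete separation upward of all 9 burdened from both control libraries was found for 0.611% of tested genes, and Ctsb was the 1 member that had it. Against control, the weighted model fitted a log2 fold change of 1.53 for met (SE 0.0226, adjusted P 2.49e-24, voomLmFit) and of 0.69 for non-met (SE 0.0603, adjusted P 9.03e-08, voomLmFit). These SEs are far smaller than the spread between libraries, whose SD was 0.45 in met and 0.50 in non-met in log2 CPM, and the precision weights rest on few libraries. For Ctsb 1 library carried 99.6% of the weight in met (met 3), 85.3% in non-met (non-met 2) and 99.9% in control (control 1), against medians of 39.7%, 28.9% and 61.6% over all tested genes. With equal weights the differences from control were 1.21 for met (SE 0.295, adjusted P 0.201, limma-trend) and 1.13 for non-met (SE 0.264, adjusted P 0.141, limma-trend). DESeq2, which uses neither precision nor sample weights, gave 1.17 for met (adjusted P 0.13) and called Ctsb in non-met, at 1.26 (adjusted P 0.0204). Leaving out the sample weights alone did not remove the met call. With its precision weights kept, voomLmFit then gave 1.535 (adjusted P 5.92e-40). Without control 1, which leaves 1 control library assumed to vary like the other groups, Ctsb was called in neither area although the folds were larger, at 1.91 and 1.07 (adjusted P 0.806 and 0.716, voomLmFit). Without met 3 the met value was 0.92 (adjusted P 0.0552, voomLmFit), and without non-met 2 the non-met value was 0.52 (adjusted P 0.102, voomLmFit).

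Between the areas of burdened bones, Ctsb did not separate. The weighted fit gave 0.84 for met against non-met (SE 0.0578, adjusted P 7.81e-10, voomLmFit) while the unweighted difference was 0.08 (SE 0.228, adjusted P 0.963, limma-trend). Within mouse pools, met was below both non-met libraries of pool 2 (1988 against 2082 and 2311 CPM), below the non-met library of pool 3 (2444 against 4361) and above that of pool 4 (3671 against 3105). With the mouse pool as a block, the fitted value turned to -0.63 with adjusted P 0.00148 (voomLmFit), a call in the opposite direction. The mean difference within the 3 pools was -0.25 on the log2 scale with an SD of 0.55. Of the marker lists, the summed endothelial genes were higher in all met libraries (12252 CPM or more) than in both controls (7765 and 11001 CPM), but 4 of 6 non-met sums lay below the higher control. Single endothelial genes went both ways. Of these 10 genes, voomLmFit called 4 higher in met than in control (Pecam1, Tie1, Emcn and Cdh5), and limma-trend called 0. Kdr was the 1 called lower (-0.48, adjusted P 2.14e-05, voomLmFit, and 0.08 with equal weights). Pecam1, Cdh5, Tie1 and Esam were higher in all met libraries than in both controls. Pecam1 had 2297 to 3163 CPM in met against 1247 and 972 CPM, and Tie1 957 to 1949 against 823 and 580 CPM. Cldn5 was the 1 gene lower in all met libraries (762 to 1002 CPM) than in both controls (1064 and 1132 CPM). The granulocyte sum was above both controls in all non-met libraries (398 CPM or more against at most 388) and not in met (35.6 to 204 CPM). In met, 6 of 7 tested mammary epithelial genes were also higher than in both controls, at low levels, in a comparison in which 20.7% of all tested genes did not overlap. Their part in the Ctsb values was not tested.

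Ctsl encodes an endopeptidase of the same family that degrades proteins taken up into the lysosome and trims the propeptides of other hydrolases. It had 952, 1123 and 2900 CPM in met, 1079, 844, 4694, 1142, 1347 and 1125 CPM in non-met, and 967 and 1038 CPM in the controls. Apart from met 3 and non-met 3, which come from different mouse pools, all libraries lay between 844 and 1347 CPM, and burdened and control values overlapped. The weighted fit called Ctsl higher in met than in non-met (1.22, SE 0.263, adjusted P 0.0300, voomLmFit) and than in control (1.35, SE 0.148, adjusted P 1.98e-06, voomLmFit). Here met 3 carried 83.4% of the met weight and non-met 2, the lowest non-met library, 60.4% of the non-met weight, and control 1 carried 99.8%. Without met 3 neither call was made and the value against control was 0.16 (adjusted P 0.912, voomLmFit). With control 2 as the single control that value was 1.41, not past the threshold (adjusted P 0.179, voomLmFit). The call against non-met was also lost without met 1 or without non-met 1, 2, 5 or 6, where the values were 1.17, 1.14, 0.75, 1.00 and 1.12 (adjusted P 0.110 to 0.673, voomLmFit). With equal weights the same differences were 0.06 (SE 0.369, adjusted P 0.981, limma-trend) and 0.54 (SE 0.477, adjusted P 1, limma-trend). Non-met against control was 0.13 (SE 0.219, adjusted P 0.726, voomLmFit). Met 3 was above its pool partner non-met 4 by 2900 to 1142 CPM, and met 2 was below its partner non-met 3 by 1123 to 4694 CPM. In pool 2, met 1 lay between both non-met libraries. With the pool as a block the met against non-met value was -1.55 with adjusted P 1.74e-09 (voomLmFit), again the opposite sign. The mean difference of Ctsl within the 3 pools was -0.25 on the log2 scale with an SD of 1.71.

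**Figure D2:**
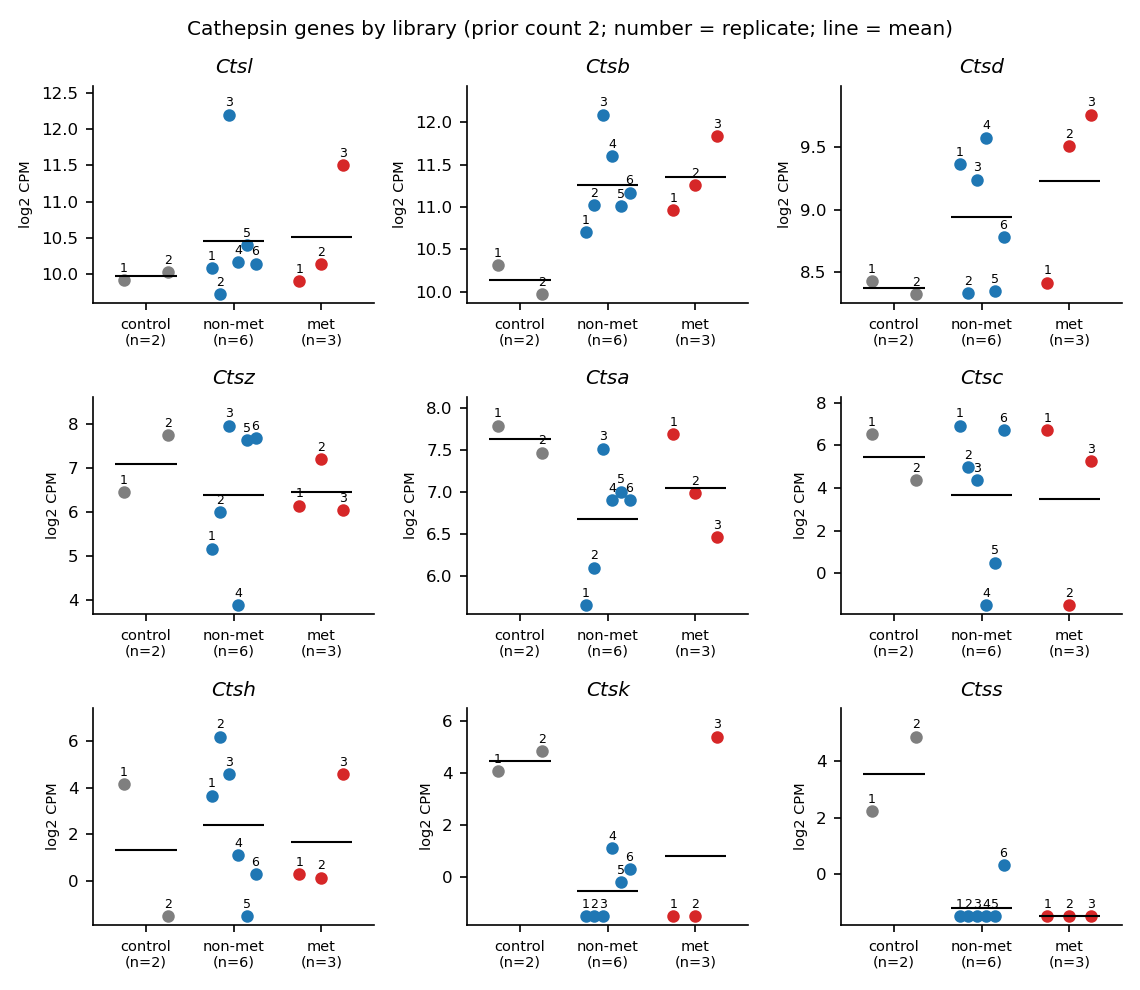
Level of each cathepsin gene in log2 CPM (prior count 2, one panel per gene with its own vertical scale), for 2 control, 6 non-met and 3 met libraries. Points are libraries numbered by replicate and lines are group means; the Ctsb panel shows all burdened libraries above both controls, and the Ctss panel shows reads in the controls and 1 read in non-met 6.

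Ctsd encodes the main aspartic protease of the lysosome. Its levels were 341, 727 and 865 CPM in met, 657, 322, 604, 762, 326 and 440 CPM in non-met, and 344 and 321 CPM in the controls. Both controls lay at the bottom of the range, together with met 1, non-met 2 and non-met 5, while the remaining burdened libraries stood at 440 CPM or more. Ctsd was called higher in met than in control by the weighted fit (1.20, SE 0.245, adjusted P 0.00913, voomLmFit), and the equally weighted difference was 0.85 (SE 0.548, adjusted P 1, limma-trend). This call was lost without met 2 (1.10, adjusted P 0.197), without met 3 (0.74, adjusted P 0.458) and without control 1 (1.33, adjusted P 0.257, 1 control left), all by voomLmFit. The other comparisons did not pass the threshold, voomLmFit giving 0.79 (SE 0.271, adjusted P 0.416) for met over non-met and 0.41 (SE 0.277, adjusted P 0.415) for non-met over control. Met was above its non-met partner in pools 3 and 4 (727 against 604 and 865 against 762 CPM), and in pool 2 it lay between the non-met libraries.

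**Figure D3:**
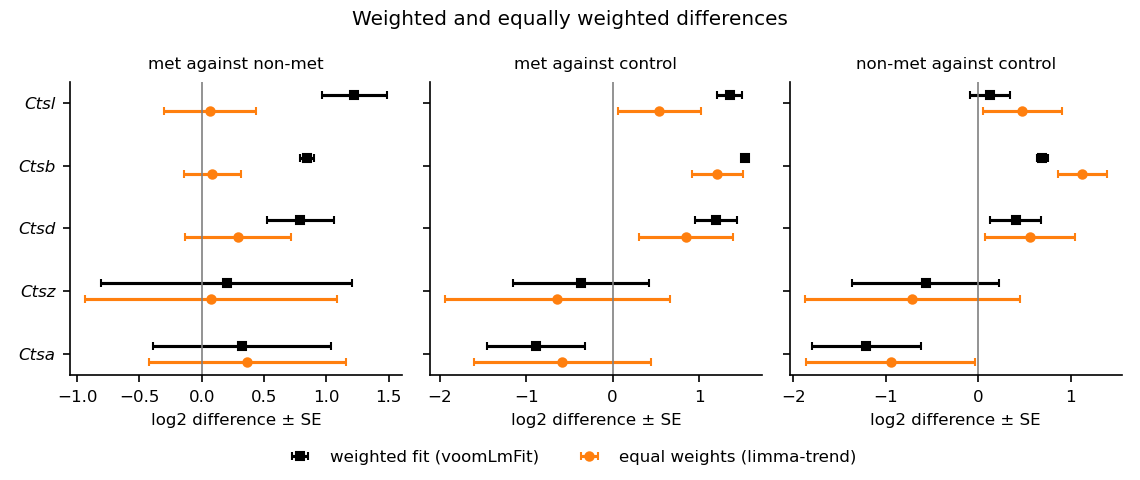
Log2 differences with their SE for the 5 genes detected in every library, in the 3 comparisons, from the weighted fit (squares, voomLmFit) and with equal weights (circles, limma-trend). For Ctsb, met against non-met moves from 0.84 to 0.08 and for Ctsl from 1.22 to 0.06 when libraries weigh equally.

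**Figure D4:**
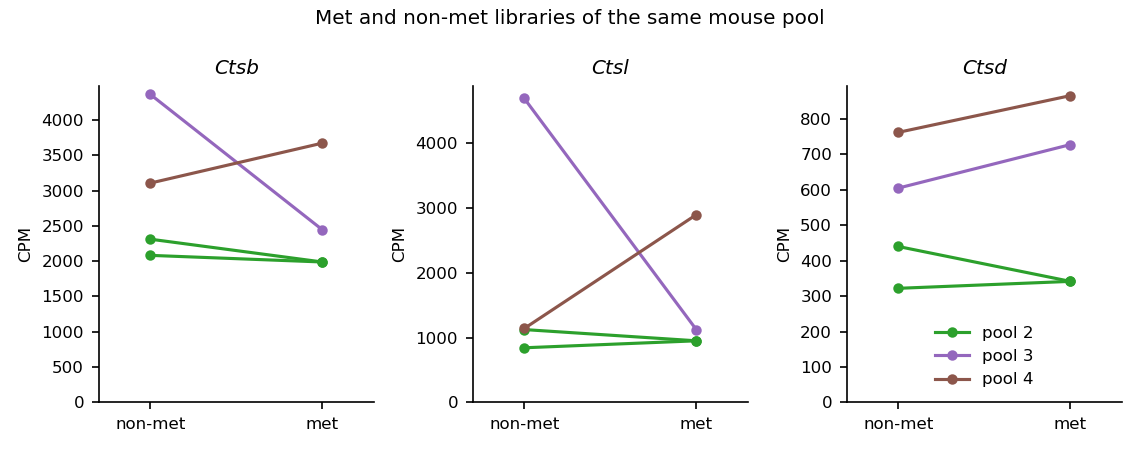
CPM of Ctsb, Ctsl and Ctsd in met and non-met libraries that come from the same mouse pool, joined by lines (pool 2 has 2 non-met libraries). Ctsb and Ctsl fall from non-met to met in pool 3 and rise in pool 4, and Ctsd rises in both.

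Ctsz and Ctsa, both carboxypeptidases by activity, were detected in all 11 libraries and passed no test. Ctsz encodes cathepsin X/Z, which can bind integrins through its propeptide. It had 70.5, 146 and 65.3 CPM in met, 35.7, 63.3, 248, 14.5, 198 and 203 CPM in non-met, and 87.0 and 214 CPM in the controls, a 17.1-fold range over libraries. The lowest value, in non-met 4, came from 8 reads. Ctsa had 205, 127 and 87.8 CPM in met, 50.1, 68.2, 183, 119, 128 and 119 CPM in non-met, and 221 and 176 CPM in the controls. Only met 1 and non-met 3 reached the range of the controls for Ctsa. The fitted differences of Ctsa were -0.89 for met (SE 0.571, adjusted P 0.528, voomLmFit) and -1.21 for non-met against control (SE 0.591, adjusted P 0.297, voomLmFit). Those of Ctsz were -0.37 (SE 0.786, adjusted P 0.885, voomLmFit) and -0.57 (SE 0.790, adjusted P 0.675, voomLmFit). Libraries of the same pool and area also differed. Non-met 1 and 5 had 35.7 and 198 CPM of Ctsz and 50.1 and 128 CPM of Ctsa, and non-met 2 and 6 had 63.3 and 203 CPM of Ctsz and 68.2 and 119 CPM of Ctsa.

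Ctsc and Ctsh were detected unevenly between libraries of the same group. Ctsc encodes dipeptidyl peptidase 1, which activates the serine proteases of granulocyte and lymphocyte granules, and was over 3 reads in 8 libraries. Its levels were 105, 0 and 38.3 CPM in met, 121, 31.2, 20.2, 0, 1.06 and 105 CPM in non-met, and 91.9 and 20.5 CPM in the controls. Ctsh encodes an aminopeptidase and was over 3 reads in 6 libraries. It had 0.881, 0.758 and 23.6 CPM in met, 12.3, 71.9, 23.6, 1.81, 0 and 0.888 CPM in non-met, and 17.5 and 0 CPM in the controls. Non-met 1 and 5, sorted from the same pool, had 121 and 1.06 CPM of Ctsc and 12.3 and 0 CPM of Ctsh. The SE of their fitted differences was 1.84 or more on the log2 scale in the 3 comparisons, and no adjusted P was below 0.368 (voomLmFit).

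Ctsk and Ctss, the neighbours on chromosome 3, had the lowest mean levels of the 9 and reads in the fewest libraries. Ctss encodes a cysteine protease that stays active at neutral pH and trims the invariant chain of class II molecules in antigen-presenting cells. It had 89 and 162 reads in the controls (4.35 and 28.7 CPM), 0 reads in the 3 met libraries, and 0 reads in 5 non-met libraries with 1 read in non-met 6. A count of 0 in met allows up to 0.344 to 1.32 CPM per library. Against that floor of 3 reads per library, averaged over the group, Ctss was at least 22.2-fold higher in control than in met and at least 8.54-fold higher than in non-met. These bounds are carried by control 2, and with control 1 alone they were 5.84-fold and 2.25-fold. In non-met 4 the floor was 5.43 CPM, above the 4.35 CPM of control 1, so a level like that of control 1 was not detectable there. Ctss was the 1 member lower in all 9 burdened libraries than in both controls, as were 2.39% of tested genes. It was not past the threshold, with adjusted P 0.116 for met and 0.154 for non-met against control (voomLmFit), and 0.578 and 0.369 with equal weights (limma-trend). With no filter beyond 1 read, Ctss was called lower in met than in control (adjusted P 0.0449, voomLmFit), the 1 alternative of 22 that did so. That fit called 429 of 15935 genes, beside 143 of 11948 in the main fit.

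Ctsk encodes the collagen-degrading cathepsin for which osteoclasts are known. It had 338 and 160 reads in the controls (16.5 and 28.3 CPM) and 365 reads in met 3 (41.9 CPM), the highest level of all. The other met libraries had 0 reads and no non-met library had more than 1, so Ctsk was at least 11.6-fold higher in control than in non-met against the same floor (8.55-fold with control 1 alone). Met 3 lay above both controls, and the other met libraries lay below them. Non-met against control was not past the threshold (adjusted P 0.132, voomLmFit). The defining osteoclast genes Ocstamp, Dcstamp, Calcr, Atp6v0d2 and Oscar were at 0 in all 11 libraries, and Acp5, which encodes the acid phosphatase used to stain osteoclasts, had at most 9 reads and none in the controls. The other 4 of the 10 osteoclast genes, which other cells express too, were detected. Tnfrsf11a, which encodes the receptor RANK, had 95.6, 36.4 and 41.0 CPM in met, at most 5.43 CPM in non-met, and 0.733 and 23.0 CPM in the controls. Itgb3, Mmp9 and Nfatc1 had 30.3, 108 and 59.0 CPM in met 3, the library with the most Ctsk. Libraries with at most 1 read of Ctsk were higher, with Itgb3 at 41.1 and Nfatc1 at 69.2 CPM in met 2, Mmp9 at 415 CPM in non-met 5 and Nfatc1 at 100 CPM in non-met 2. The 10 genes summed to 102 to 238 CPM in met, with met 3 the highest, 19.5 to 417 in non-met and 51.3 to 97.9 in control. The part of these genes' source in the Ctsk values was not tested.

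Other marrow genes moved with Ctss and Ctsk only in part. The stromal sum was 4220 and 10942 CPM in the controls, and Cxcl12 stood at 3224 and 8721 CPM there against 225 to 2603 CPM in burdened libraries. The same sum was 4746 CPM in non-met 5, which had 1 read of Ctsk and 0 of Ctss, and 1254 CPM in met 3, which had the most Ctsk. Of the 15 monocyte and macrophage genes, Mrc1, a mannose receptor that sinusoidal endothelium also carries, had 1526 and 929 CPM in the controls, above the 306 to 895 CPM of all burdened libraries. Lyz2 (25.7 and 12.2 CPM), Cd14 (41.0 and 39.3 CPM) and Cd68 (1.76 and 8.85 CPM) had reads in the controls, and Csf1r and Adgre1 had 0. Cd14 was above both controls in all 6 non-met libraries (86.2 to 222 CPM) and had 0, 4.93 and 236 CPM in met. Lyz2 had 0, 0 and 10.4 CPM in met, below both controls, and 0.622 to 310 CPM in non-met, with non-met 3 and 4 below the controls. Cd68 had 0 to 17.6 CPM in met and 0 to 58.8 CPM in non-met, where 4 of 6 libraries were at 0. The part of these cells in the Ctsk and Ctss values was not tested.

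The members' calls are set beside those over the whole table. In met against non-met the weighted fit (voomLmFit) called 2 members (Ctsb and Ctsl, both higher) and 0.427% of tested genes, and limma-trend called 0 members and 0.0167% of genes. At an unadjusted P under 0.05 these fits had 3 and 0 members, and 7.24% and 4.7% of genes. No member was free of overlap between met and non-met, against 1.98% of tested genes. In met against control the weighted fit called 3 members (Ctsb, Ctsd and Ctsl, all higher) and 1.2% of genes, limma-trend 0 members and 0.0753% of genes, with 5 and 2 members, and 14.1% and 4.96% of genes, at an unadjusted P under 0.05. Ctsb (higher) and Ctss (lower) did not overlap between met and control, and neither did 20.7% of genes. In non-met against control the weighted fit called Ctsb and 0.636% of genes, limma-trend 0 members and 0.067% of genes, with 3 members each, and 17.0% and 4.46% of genes, at an unadjusted P under 0.05. Ctsb (higher), Ctsk and Ctss (both lower) did not overlap there, as for 6.29% of genes. The members were chosen with such values known, so these shares are descriptions. The comparisons with control use the same 2 control libraries.

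Of 14 further cathepsin genes in the table, 6 had more than 3 reads in any library and 3 were tested (Ctse, Ctsf and Ctso), and voomLmFit called none, with 1 of them (Ctsf) at an unadjusted P under 0.05 in each comparison with control. Ctso was over 3 reads in 10 libraries, at 41.3 to 97.8 CPM in met, 1.06 to 215 in non-met and 41.6 to 43.7 in control. Ctsf stood at 42.0 and 110 CPM in the controls, above all 9 burdened libraries, of which met 3 with 40.7 CPM was the highest. Its adjusted P was 0.144 for met and 0.0564 for non-met against control (voomLmFit). Ctse, an aspartic protease like Ctsd, was at 0 in both controls and at 54.3 CPM at most, in non-met 4. Ctsg, a granulocyte serine protease, had 352 reads in control 1 and 0 in all other libraries. Ctsm had 164 reads in non-met 5 alone and Cts8 45 reads in control 1 alone.

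None of the 7 tested cystatins and stefins, the endogenous inhibitors of cysteine cathepsins, was called in any comparison by voomLmFit or limma-trend, with 1, 0 and 4 genes at an unadjusted P under 0.05 by voomLmFit in met against non-met, met against control and non-met against control. Cst3, the secreted cystatin C, was the most abundant with a mean of 195 RPKM, at 120 to 220 CPM in met, 5.43 to 270 in non-met, and 120 and 254 CPM in the controls. Cstb, the cytosolic inhibitor stefin B, stood at 24.9 to 97.1 CPM in the 6 non-met libraries, above the 4.74 and 0 CPM of the controls, and at 0.881, 0.758 and 112 CPM in met (non-met against control 8.36, adjusted P 0.0628, voomLmFit, and 5.40, adjusted P 0.852, limma-trend). The stefin A genes Stfa2, Stfa3 and Stfa2l1 had reads in non-met 1 and 6 and, for Stfa2 and Stfa2l1, in non-met 2, with 0 reads in met and control. Granulocyte genes such as S100a8 were high in the same 3 libraries, at 675, 462 and 952 CPM against 0 to 12.2 CPM in met, and also in non-met 5, at 672 CPM, where these stefins had 0 reads. Their part in the stefin values was not tested.

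Among other genes of the lysosome, Lgmn separated burdened from control libraries as Ctsb did. Lgmn encodes legumain, an asparagine-specific protease that can cut the proforms of cathepsins. It had 962, 1067 and 2115 CPM in met and 803 to 2749 CPM in non-met, all above the 658 and 502 CPM of the controls. It was called higher in met (1.52, adjusted P 1.85e-05, voomLmFit) and in non-met (1.14, adjusted P 0.0103, voomLmFit) than in control, with equally weighted differences of 1.17 and 1.17 (adjusted P 0.63 and 0.344, limma-trend). Psap, which encodes the precursor of the saposins that help degrade sphingolipids, was the other soluble enzyme or cofactor gene called, in met against non-met (0.76, adjusted P 0.0151, voomLmFit, and 0.29, adjusted P 0.911, limma-trend). Its values overlapped, at 956 to 1825 CPM in met and 828 to 1765 CPM in non-met. Of 32 such genes, voomLmFit called 1 in each comparison and limma-trend 0, with 1, 7 and 6 genes at an unadjusted P under 0.05 by voomLmFit and 1, 4 and 1 by limma-trend. The median fitted difference of the list was 0.48 in met against non-met, beside 0.08 for all tested genes, and -0.09 in met against control, beside -0.09 for all.

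Genes that carry, enclose or acidify the lysosome passed no test. In met against non-met, voomLmFit called 0 of 11 targeting genes, 0 of 11 lysosomal membrane genes, 0 of 17 proton pump subunits and 0 of 4 lysosomal transcription factors, with 0, 1, 1 and 0 genes at an unadjusted P under 0.05. No gene of these lists was called in the comparisons with control either. Their median fitted differences in met against non-met were 0.94, 0.46, 0.57 and 1.00, beside 0.08 for all tested genes, and against control in met 0.32, -0.27, -0.10 and 1.52, beside -0.09. With equal weights the medians were 0.72, 0.57, 0.455 and 1.24, beside 0.26 for all tested genes, and 0.04, -0.84, -0.26 and 0.13, beside -0.35. M6pr, the small mannose 6-phosphate receptor, had 107 to 468 CPM in met, 30.2 to 284 in non-met and 91.8 to 141 in control. Lamp1, a major glycoprotein of the lysosomal membrane, had 345 to 716 CPM in met, 296 to 977 in non-met and 340 to 510 in control. Atp6v0d1, a subunit of the proton pump, was higher in all 9 burdened libraries (88.7 CPM or more) than in the controls (70.9 and 20.2 CPM), with adjusted P 0.618 and 0.315 (voomLmFit). Tfe3, which encodes a transcription factor of lysosomal genes, had 44.4 to 123 CPM in met, 0.530 to 73.1 in non-met and 23.4 to 56.0 in control.

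The class II chaperone that Ctss and Ctsl can trim showed a different pattern from either protease. Cd74, the invariant chain, had 132, 171 and 287 CPM in met, at most 36.1 CPM in non-met and 17.6 and 36.4 CPM in the controls. It was the 1 gene of 7 in its list called (met against non-met 5.62, adjusted P 0.0376, voomLmFit), and with equal weights the value was 5.53 and not past the threshold (adjusted P 0.911, limma-trend). H2-Ab1, a class II chain, was also higher in every met library (31.7 to 178 CPM) than in every non-met library (31.1 CPM at most). The other 5 genes of the list overlapped between met and non-met, among them H2-Aa at 0.441, 0 and 78.7 CPM, H2-Eb1 at 0, 0.569 and 45.9 CPM and H2-DMa at 0, 0 and 25.1 CPM in met 1 to 3. In these met libraries Ctss had 0 reads while Ctsl had 952 to 2900 CPM.

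Over the 11 libraries the abundant members varied together to a degree. Pearson's r of log2 CPM was 0.73 for Ctsb with Ctsl, 0.67 for Ctsb with Ctsd and 0.50 for Ctsl with Ctsd, and 0.65 for Ctsk with Ctss. The r of Ctss with Ctsb and Ctsd was -0.74 and -0.48. Ctss had more than 1 read only in the 2 controls. Its r, also that with Ctsk, therefore mostly restates how the controls differ from the burdened libraries. The 11 points share 6 mouse pools, and these r are descriptions. The genes most like Ctsb among all tested were Rpl8 (r = 0.95), Lgals3, which encodes galectin-3 (0.91), and Ctla2a, a gene related to cathepsin propeptides (0.90). For Ctsl they were Galnt5, Dlec1 and Neurod2 (0.97 each), and for Ctsd Proser2, Ephb4 and Znrf2 (0.88 to 0.89). Ctsl was high only in met 3 and non-met 3, so its r values lean on those libraries. Ctsa was most like Htra1, Gabarap and Capn7 (0.90 to 0.91) and Ctsz most like Chd7, Inafm1 and Slc35e1 (0.88 each). For the sparse genes the likest were Dhx8 for Ctsc (0.94), Rps6kc1 for Ctsh (0.97), Tpgs2 for Ctsk (0.99) and B9d1 for Ctss (0.99), values that rest on the few libraries with reads.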

How the data were processed

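The deposited values are raw read counts per gene. Per the study's methods the authors mapped reads to mm10 with Rsubread and used featureCounts, which the submitters' processing notes also name, to count reads for each Entrez gene. Counts of the series matrix were identical to those of the 11 tables of single libraries. RefSeq (GRCm38.p6) named 25275 of 27179 rows and GENCODE 18 more. Left out were 1886 rows without a name, 30 ribosomal and 1800 predicted rows, which held 1.94% to 15.8% of a library's counts. Genes passed edgeR's filterByExpr (minimum count 10, total 15), which left 11948. CPM (counts per 1000000) and RPKM were computed here from the counts with TMM scaling (edgeR 4.0.16), with a prior count of 2 for log2 CPM.

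One model of the 3 groups was fitted with voomLmFit and sample weights (0.430 to 1.96), as the study did, and called at a Benjamini-Hochberg adjusted P of 0.05 over all tested genes, two-sided. Alternatives were limma-trend (limma 3.58.1), edgeR's quasi-likelihood test, DESeq2 1.42.0, other scalings and filters, the mouse pool as a block, summed libraries, 2 groups only and leaving out each library (R 4.3.3). Leaving out a control leaves 1 control library, assumed to vary like the other groups. Promoter windows inside the gene's own span were dropped after the data were seen. The fits were also run on simulated counts with the same dispersion for every gene and library. Real libraries vary less evenly than that, so the run does not test the weights described above. The members and gene lists were chosen with earlier results of these data known, all 9 members were named, and list genes were named by smallest adjusted P or highest mean level. Libraries share pools, and limma-trend P-values measure the spread between them. Those of voomLmFit weigh libraries by precision, and for Ctsb and Ctsl they rest mostly on 1 library of each group. Met and non-met libraries of the same pool come from the same animals per the labels, although Spearman correlations of their deviations from the group means lay between -0.02 and 0.02.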

Additional observations from a re-analysis of the deposited data

Results flagged for a closer look

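Groups of 4 or more libraries, here non-met alone, were searched for a library far from the others in each of the 9 genes, and chance marks about 1 in 20 groups. Ctsl in non-met 3 stood apart at a log2 CPM of 12.2, or 4694 CPM, while the other 5 non-met libraries had 844 to 1347 CPM. Ctss in non-met 6 stood apart at a log2 CPM of 0.32 (0.317), which is 1 read where the other non-met libraries had 0. With the other values tied any single read is marked, so that chance rate does not apply to Ctss.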

How the results depend on the processing

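The number of cathepsin genes called in met against non-met (2 by voomLmFit) was 0 with edgeR's quasi-likelihood test, 0 with DESeq2 and 0 with limma-trend, which also had 0 members each at an unadjusted P under 0.05. Over all 11948 tested genes these tools called 16, 324 and 2 in this comparison, 10, 228 and 9 in met against control, and 14, 266 and 8 in non-met against control. In met against non-met 1 member (Ctsb) was called with predicted, ribosomal RNA and unnamed rows kept, beside 38 of 12499 genes. Ctsb alone was also called with libraries of a pool and area summed (24 of 11864 genes) and with only the 2 groups fitted (46 of 9432). The number was 0 to 2 when each library was left out. Without non-met 1, 2, 5 or 6 or met 1 it was Ctsb alone, and without met 3 none. In met against control (3) it was 0 with the quasi-likelihood test, 0 with DESeq2 and 0 with limma-trend (2 members each at an unadjusted P under 0.05). With no filter beyond 1 read it was 4, which added Ctss as lower. In that fit 429 of 15935 genes were called, beside 143 of 11948 in the main fit. It was 1 with summed libraries (55 of 11864 genes), 1 with only the 2 groups (80 of 10436), and 0 to 3 on leaving out a library. None was called without met 3, where 36 of 11663 genes were. The fit without control 1, which leaves 1 control, is given for Ctsb, Ctsl and Ctsd above. Without met 2 Ctsd was lost. In non-met against control (1) it was 0 with the quasi-likelihood test, 0 with limma-trend (2 and 3 members at an unadjusted P under 0.05), 1 (Ctsb) with DESeq2, and 0 to 1 on leaving out a library, 0 without control 1 or non-met 2. The direction of Ctsb against control held in all 23 alternatives in both areas. Since every burdened library lay above both controls, this adds little to those values. Taking mouse pool as a fixed replicate block drops the controls and leaves 7 members and 9432 genes tested, of which 27 genes were called. Then 2 members (Ctsb and Ctsl) were called lower in met than in non-met, the reverse of the main direction. The blocked log2 fold changes were -0.63 for Ctsb, -1.55 for Ctsl, -0.38 for Ctsz and 0.89 for Ctsc. With the pool as a random replicate block (correlation -0.04) the calls were those of the main fit. Without sample weights they were the same in met against non-met (63 of 11948 genes called) and in met against control (274).

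Other changes of sign concerned genes past no threshold, apart from Ctsb and Ctsl, and the cause was not tested. In met against non-met, the quasi-likelihood test gave 0.0354 for Ctsc, 4.85 for Ctsk, -0.0404 for Ctsl and -0.44 for Ctsz. DESeq2 gave -0.0935 for Ctsb, 4.595 for Ctsk (adjusted P not given), -0.15 for Ctsl and -0.59 for Ctsz. Ctsk was 1.343 with limma-trend, 1.17 without sample weights, 0.48 with a mean of at least 5 CPM and 0.27 with summed libraries. Leaving out a library gave -2.04 to 0.96 for Ctsk (above 0 without met 1, met 2, non-met 4, 5 or 6), -0.22 to 0.57 for Ctsz (below 0 without met 2 or non-met 1) and -3.43 to 2.01 for Ctsc (above 0 without met 2). In met against control Ctsh was -0.0529 with the quasi-likelihood test and -0.0689 with DESeq2. Leaving out a library gave -2.92 to 4.72 for Ctsh (below 0 without control 2), -1.23 to 0.0852 for Ctsz (above 0 without control 2) and -5.22 to 0.25 for Ctsc (above 0 without met 2). In non-met against control leaving out a library gave -2.27 to 5.34 for Ctsh (below 0 without control 2) and -0.0522 to 0.61 for Ctsl (below 0 without non-met 3 or control 1), and library size scaling gave -0.0633 for Ctsl. Depth limits Ctss, Ctsk, Ctsh and Ctsc, since 3 reads are 5.43 CPM in non-met 4 and 0.147 CPM in control 1.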
